A study of Mus musculus with 18 samples.

Results

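Lif, Il6ra and Gdf5 are cytokine signalling genes whose transcripts were measured in glomeruli of mice with and without PTIP in podocytes. The 3 genes were chosen by symbol, and each is represented by 1 probe set, so 3 of the 58 probe sets in the deposited table are described here. Of the 58, 49 carry a gene symbol, for 41 different symbols. The table's pathway annotation, which covers 11 of these symbols, places Lif, Il6ra and Gdf5 and no other of the 11 in cytokine-cytokine receptor interaction.

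PTIP, the product of Paxip1, is a nuclear protein found with histone methyltransferases, and the study asked how its loss from podocytes changes glomerular gene expression before disease is visible. RNA from glomeruli enriched fractions, obtained by sieving minced kidney, of each mouse was measured on an Affymetrix mouse array of its own. The 10 PTIP- mice carried either ptip fl/fl or ptip fl/- together with the Pod-Cre transgene, which expresses Cre in podocytes. Other glomerular cells keep their floxed copies. The 8 PTIP+ mice, called wild-type in the sample titles, were littermates with ptip fl/fl or ptip fl/- and no Cre. Mice with ptip fl/- hold a null copy in every cell, and the titles do not say which mice of either group these were. No array came from a mouse that carried Cre and kept PTIP, so Cre and the loss of PTIP cannot be told apart. The protocol gives an age of 4 weeks for all mice, whereas the sample labels give each mouse a different age, from 1 to 8 months in PTIP+ and from 9 to 18 months in PTIP- mice. The age of the protocol is used here, and if the labelled ages were right, age and genotype could not be told apart. The table holds none of 32 marker genes of podocytes, mesangial, endothelial, tubular, white blood or smooth muscle cells, so the makeup of the fractions was not analysed here.

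The numbers in the scan names fall into 3 series, which no label calls a batch. In both series 1 and series 3 there were 3 PTIP+ and 3 PTIP- mice, and in series 2 there were 2 PTIP+ and 4 PTIP- mice. PTIP+ replicate 5 and PTIP- replicate 7 share 1 scan-name number. Values are log2 RMA values, a scale on which a difference of 1 is a 2-fold difference. The authors had selected all 58 probe sets on these arrays for a 2-fold difference between the genotypes, so Lif, Il6ra and Gdf5 had to differ, and each test of genotype below describes size and spread and is not independent evidence. The number of arrays limits the precision.

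Leukemia inhibitory factor (Lif) is a secreted ligand of the interleukin 6 family, and Il6ra encodes the chain of the interleukin 6 receptor that binds the ligand. Both act through the shared receptor subunit gp130, which turns on JAK kinases and STAT transcription factors. Gdf5 encodes growth differentiation factor 5, a secreted ligand of the BMP family whose serine/threonine kinase receptors phosphorylate SMAD proteins. Both families are known from kidney development, where LIF can turn metanephric mesenchyme into epithelium in culture and BMP ligands act on nephron progenitors.

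RefSeq promoter entries of GRCm38.p6 were matched for 2 of the 3 genes, Lif and Il6ra. The 250 bases before each start are shown because both transcripts were lower in PTIP- mice, and capitals mark CG dinucleotides. The Lif stretch lies at chr11:4257318-4257567 on the plus strand and the Il6ra stretch at chr3:89913197-89913446 on the minus strand, each printed 5′ to 3′.
Lif: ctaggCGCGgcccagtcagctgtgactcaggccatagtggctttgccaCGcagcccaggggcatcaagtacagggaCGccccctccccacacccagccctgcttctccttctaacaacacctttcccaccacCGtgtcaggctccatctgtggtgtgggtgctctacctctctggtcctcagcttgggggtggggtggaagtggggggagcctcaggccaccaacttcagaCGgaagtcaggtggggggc
Il6ra: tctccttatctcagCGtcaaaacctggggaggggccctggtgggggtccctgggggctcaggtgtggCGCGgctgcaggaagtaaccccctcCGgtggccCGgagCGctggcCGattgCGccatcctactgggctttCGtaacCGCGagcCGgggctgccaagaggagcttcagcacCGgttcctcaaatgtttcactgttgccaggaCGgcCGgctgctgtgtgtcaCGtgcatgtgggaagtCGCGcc
Lif has 6 CG dinucleotides here, the median of all 32851 promoter entries of this length, and Il6ra has 18, more than 78.3% of them. The GC content was 63.6% for Lif and 65.2% for Il6ra, above the median of 52.4%. Neither stretch holds any of the 3 motifs searched on both strands. These were the STAT motif TTCNNNGAA, present in 7.02% of all entries, the SMAD motif CAGACA, in 17.1%, and TATAAA, in 12.4%. The missing matches say only that these letters are not in the windows.

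Lif was lower in PTIP- mice. Its probe set 1421207_at read 5.17, 5.84 and 6.24 in PTIP+ mice (lowest, median and highest, n = 8) and 4.36, 5.00 and 5.33 in PTIP- mice (n = 10). All 10 PTIP- mice lay below the PTIP+ mean, but the genotypes overlapped, since the highest PTIP- mouse, replicate 2, was above both PTIP+ mice of series 2, at 5.17 and 5.24. The overlap came from setting mice of different series against each other, and within each of the 3 series every PTIP- mouse was below every PTIP+ mouse. Means were 5.75 ± 0.41 (SD, n = 8) and 4.93 ± 0.26 (SD, n = 10), a difference of −0.82 or 1.77-fold. The array-weighted limma fit gave −1.01 with a standard error of 0.18 (adjusted p = 1.3e-05), at the edge of the 2-fold limit. Each sample is a mixture of cells, so fewer cells that express a gene and less RNA per cell cannot be told apart.

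The 2-fold limit decided whether Lif counted as changed. The fitted value was −0.96 with the series as a block, without array weights it was −0.82, and with both changes it was −0.78, all with adjusted p of 0.00082 or less in limma. Without PTIP+ replicate 6, 7 or 8 it was −0.91, −0.89 and −0.92, and without PTIP- replicate 1 or 8 it was −0.87 and −0.998, each just short of 2-fold. Exchanging genotypes over all animals, an exact two-sided permutation test of the means gave p = 9.1e-05 (n = 8 and 10, adjusted p = 0.00024) and exchanging them within series gave p = 0.00033 (adjusted p = 0.0006).

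Gdf5 was the ligand with the wider PTIP+ range. Probe set 1419139_at read 5.27, 6.27 and 6.89 in PTIP+ mice (lowest, median and highest, n = 8) and 4.57, 5.11 and 5.57 in PTIP- mice (n = 10). All 10 PTIP- mice lay below the PTIP+ mean, and 3 PTIP+ mice were below the highest PTIP- mouse, replicate 2, also the highest for Lif. Its array was high over the other probe sets too, with a median of 6.84 against 5.94 to 6.44 on the other PTIP- arrays. The part of this in its Lif and Gdf5 was not tested. The 3 PTIP+ mice below it were those of series 2, at 5.27 and 5.31, and replicate 3 of series 1, at 5.46. Means were 6.09 ± 0.66 (SD, n = 8) and 5.05 ± 0.31 (SD, n = 10), a difference of −1.05 or 2.07-fold. The weighted limma fit gave −1.42 with a standard error of 0.20 (adjusted p = 8.8e-07), and −1.26 with the series as a block. In the weighted fit the PTIP+ mice of series 2, which had low Gdf5, received weights of 0.38 and 0.45. Weights of PTIP- replicates 2, 5, 6 and 7 were also low, at 0.26 to 0.52, and without weights the value was −1.05. With the block and no weights the value was −0.98, short of 2-fold. The exact permutation test gave p = 0.00043 over all animals (n = 8 and 10, adjusted p = 0.00076) and p = 0.0027 within series (adjusted p = 0.003).

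Il6ra, the receptor gene, was lower in PTIP- mice and had the widest range of log2 values of the 3 among them. Probe set 1452416_at read 9.53, 9.91 and 10.17 in PTIP+ mice (lowest, median and highest, n = 8) and 7.21, 8.72 and 10.54 in PTIP- mice (n = 10). The highest of all 18 values belonged to a PTIP- mouse, replicate 6 of series 2, and with PTIP- replicate 5 of the same series, at 9.56, it made up the overlap. The other 8 PTIP- mice were below every PTIP+ mouse, and the 3 of series 3 were the lowest, at 8.13, 8.03 and 7.21. Means were 9.89 ± 0.23 (SD, n = 8) and 8.74 ± 0.91 (SD, n = 10), a difference of −1.15 or 2.22-fold. The weighted limma fit gave −1.33 with a standard error of 0.23 (adjusted p = 8.3e-06), and −1.47 with the series as a block. The exact permutation test gave p = 0.0033 over all animals (n = 8 and 10, adjusted p = 0.0043) and p = 0.00083 within series (adjusted p = 0.0011).

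**Figure D1:**
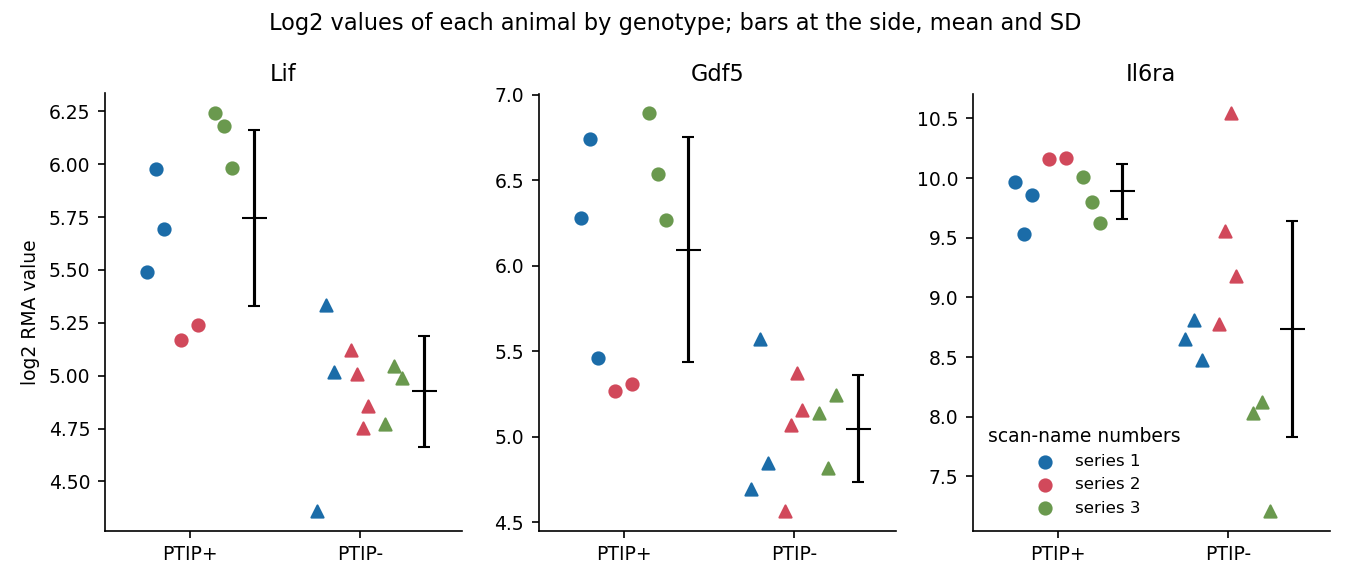
Log2 RMA value of each animal (vertical axis) for Lif, Gdf5 and Il6ra by genotype, with circles for PTIP+ and triangles for PTIP- mice, colours for the 3 series of scan-name numbers, and the mean with its SD at the side. The PTIP+ mice of series 2 are the lowest of their genotype for Lif and Gdf5, and the PTIP- mice of series 2 reach up to 10.54 for Il6ra.

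All 3 genes passed the limits of the methods as lower in PTIP- mice in the weighted fit (variance above 0.1, adjusted p of 0.05 or less, 2-fold). The same held for 33 of the 58 probe sets, 56.9%, and 52 passed in either direction, 89.7%. Array weights and the variance prior were estimated here from the 58 selected probe sets alone, so this fit does not repeat the study's own. Lower calls fell to 2 of the 3 genes without array weights, when 48.3% of probe sets were called lower, and to 2 with the series as a block, when 55.2% were. Lif was the gene that lost its call in both. Centring each array on the median of the 55 other probe sets moved the median log2 fold change of all 58 from −1.10 to −0.50, and calls from 33 lower and 19 higher to 12 lower and 20 higher. On that scale 20.7% were called lower and none of the 3 genes reached 2-fold, at −0.44 for Lif, −0.86 for Gdf5 and −0.74 for Il6ra, with adjusted p of 0.012 or less in limma. Since 38 of the 58 selected probe sets had lower means in PTIP- mice, this centring takes away part of the genotype difference itself.

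All 3 genes passed the exact permutation tests as lower, as did 60.3% of probe sets over all animals and 65.5% within series. The genotypes overlapped for all 3 over all animals, whereas 25.9% of the 58 probe sets had no overlap. Lif alone of the 3 had no overlap within any series, which held for 65.5% of probe sets. Gdf5 overlapped in series 1 and series 2, and Il6ra in series 2.

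The size of the genotype difference followed the series in the same order for the 3 genes. In series 1 the difference of means was −0.82 for Lif, −1.12 for Gdf5 and −1.14 for Il6ra. In series 2 it was −0.27, −0.25 and −0.65, and in series 3 it was −1.20, −1.50 and −2.02. Series 2 thus gave the smallest difference for all 3 genes, as for 58.6% of the probe sets, and series 3 the largest, as for 63.8%. Across the table the median absolute difference was 1.16, 1.18 and 1.48 in series 1, 2 and 3. The unequal size across series did not pass the limma interaction test after adjustment over 58 probe sets for Lif (F = 3.03, adjusted p = 0.19), Gdf5 (F = 4.19, adjusted p = 0.11) or Il6ra (F = 4.94, adjusted p = 0.07), while 9 probe sets did, 15.5%. Without array weights limma called 0 of 58, with 14 at an unadjusted p under 0.05. On centred arrays F was lower for all 3 genes, at F = 0.67 for Lif (adjusted p = 0.61), 2.56 for Gdf5 (adjusted p = 0.28) and 1.18 for Il6ra (adjusted p = 0.46), with 9 probe sets called and 17 at an unadjusted p under 0.05.

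**Figure D2:**
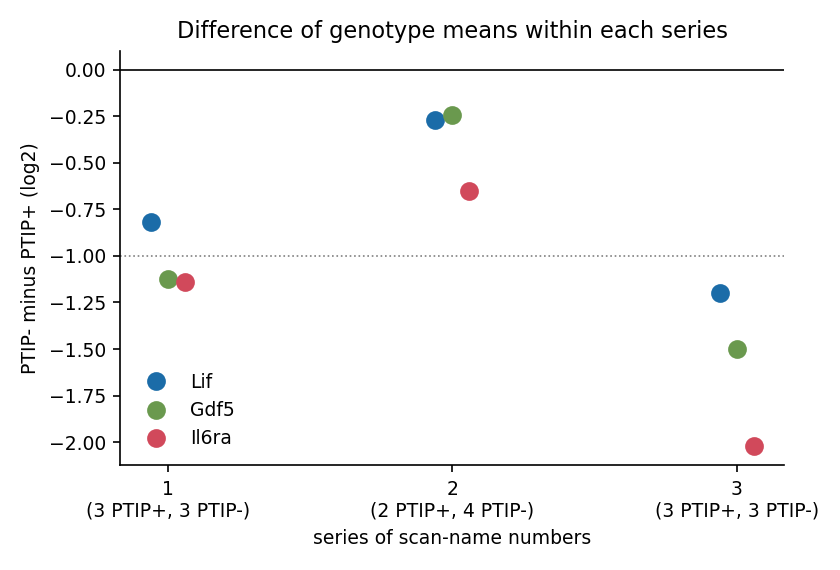
Difference of the genotype means, PTIP- minus PTIP+ on the log2 scale (vertical axis), within each series of scan-name numbers (horizontal axis, with the mice of each genotype), for Lif, Gdf5 and Il6ra. Each gene has its smallest difference in series 2 and its largest in series 3, and the dotted line marks a 2-fold decrease.

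The small differences of series 2 came from opposite genotypes for the ligands and the receptor. For Lif the PTIP+ mean of series 2 was 5.20, against 5.93 in the other PTIP+ mice, and for Gdf5 it was 5.29 against 6.36. Both PTIP+ mice of series 2 were below every other PTIP+ mouse for Lif and Gdf5, which was so for 41.4% of probe sets. The arrays of these 2 mice were also low over the rest of the table, with medians of the 55 other probe sets of 6.32 and 6.33, against 6.72 to 7.14 on the other PTIP+ arrays, and the part of this in the low Lif and Gdf5 was not tested. The PTIP- means of these genes lay close together, at 4.93 in series 2 and 4.92 elsewhere for Lif, and 5.04 and 5.05 for Gdf5. For Il6ra the PTIP- mean was 9.52 in series 2 and 8.22 elsewhere, and the PTIP+ mean was 10.16 and 9.80. The level of Il6ra moved with the series in the limma F test that allows for genotype (F = 6.68, adjusted p = 0.011), as 69% of the probe sets did. Lif (F = 2.58, adjusted p = 0.13) and Gdf5 (F = 2.54, adjusted p = 0.13) did not pass it. Without series 2 the log2 fold changes were −1.12 for Lif, −1.46 for Gdf5 and −1.62 for Il6ra, a setting chosen after seeing the data.

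The share of the variance within a genotype that lay between series differed between ligands and receptor mainly in PTIP- mice, a difference that was not tested. In PTIP+ mice it was 86.8% for Lif and 65.7% for Gdf5, against 53.7% for Il6ra and a median of 72.3% over all probe sets. In PTIP- mice it was 0.329% for Lif, 0.168% for Gdf5 and 69.4% for Il6ra, with a median of 46.7%. What separated the series of scan-name numbers was not tested, since no label describes it.

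Over all animals the SD was larger in PTIP- mice for Il6ra and in PTIP+ mice for Lif and Gdf5, and for Lif this order depended on the setting. The SD of Il6ra was 0.23 in PTIP+ and 0.91 in PTIP- mice, a ratio of 3.91. No other of the 58 probe sets had a higher ratio of PTIP- to PTIP+ SD, but 1447723_at (3.65) and Ephb1 (3.44) were close to it. On arrays centred on the other probe sets the Il6ra SDs were 0.46 and 0.87, a ratio of 1.89, and 13 probe sets had a higher one. Its PTIP+ SD was low for the table, with 1 probe set lower. For Gdf5 the SD was 2.09 times as large in PTIP+ as in PTIP- mice, and 2 probe sets had a lower ratio of PTIP- to PTIP+ SD, while for Lif it was 1.59 times as large. The median ratio of PTIP- to PTIP+ SD was 1.24 over all probe sets.

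The differences in spread did not pass a test adjusted over the table. The mean absolute deviation from the genotype median was higher in PTIP- mice by 0.45 for Il6ra (exact permutation test, p = 0.048, adjusted p = 0.39), and the PTIP- minus PTIP+ difference was −0.27 for Gdf5 (p = 0.076, adjusted p = 0.55, exact) and −0.17 for Lif (p = 0.095, adjusted p = 0.55, exact). This exact permutation test called 0% of the 58 probe sets, and 7 had an unadjusted p under 0.05. Exact here means that all splits were enumerated, with the deviations held fixed. Measured from the median of genotype and series, the difference was 0.24 for Il6ra, −0.023 for Gdf5 and 0.074 for Lif. Exchanging mice within series, the exact permutation test gave p = 0.13, 0.86 and 0.36, with adjusted p of 0.545 or more. For Lif the sign had thus turned, as it did on centred arrays (0.043) and without series 2 (0.0052). Medians of few mice shrink deviations, and series 2 had 2 PTIP+ and 4 PTIP- mice, so the values by genotype and series can depend on these numbers. Without PTIP- replicate 6, left out after seeing the data, the Il6ra SD over all series was 0.69 in PTIP- mice, 2.96 times that of PTIP+ mice. The exact permutation test of the deviations gave p = 0.069 at that setting (adjusted p = 0.50).

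**Figure D3:**
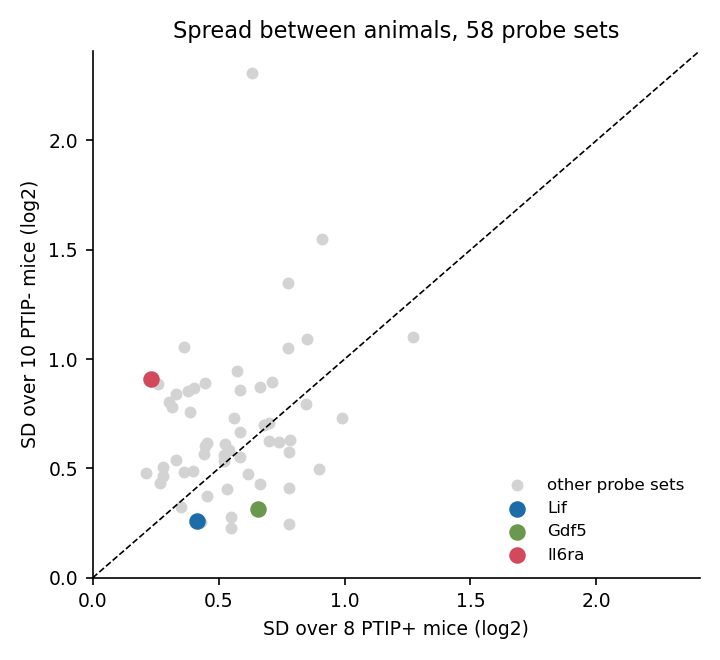
SD between the 10 PTIP- mice (vertical axis) against the SD between the 8 PTIP+ mice (horizontal axis) on the log2 scale for each of the 58 probe sets, with equal spread on the dashed line. Il6ra lies far above the line at 0.23 and 0.91, and Lif and Gdf5 lie below it.

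Differences between the 3 genes in the size of their decrease did not pass the test. The change of Il6ra, PTIP- minus PTIP+, less that of Lif was −0.33 (exact permutation test of the difference within arrays, p = 0.42, adjusted over 1653 pairs p = 0.51). It was −0.11 for Il6ra against Gdf5 (exact, p = 0.80, adjusted p = 0.84) and −0.23 for Gdf5 against Lif (exact, p = 0.20, adjusted p = 0.27). Of all 1653 pairs of probe sets, 62.7% differed in this test, a share that includes pairs of opposite direction. With each animal left out in turn, the value for Il6ra against Lif was −0.55 (without PTIP- replicate 6) to −0.16 (without PTIP- replicate 10), and −0.21 and −0.22 without PTIP+ replicates 4 and 5. For Gdf5 against Lif it was −0.31 (without PTIP+ replicate 3) to −0.15 (without PTIP- replicate 4). The sign for Il6ra against Gdf5 turned without PTIP+ replicate 4 (0.049), PTIP+ replicate 5 (0.045) or PTIP- replicate 10 (0.084). These tests used no array weights, and the weighted limma fit had the opposite order, at −1.42 for Gdf5 and −1.33 for Il6ra. Adjusted for series, it was −0.51 for Il6ra against Lif (exact test within series, p = 0.067, adjusted p = 0.094), −0.31 for Il6ra against Gdf5 (exact, p = 0.22, adjusted p = 0.28) and −0.20 for Gdf5 against Lif (exact, p = 0.27, adjusted p = 0.34).

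Covariation was measured over the deviations of the 18 mice from the mean of their genotype and series. Pearson's r was 0.35 for Lif and Gdf5 (exact permutation test within genotype and series, p = 0.34, adjusted p = 0.76), −0.25 for Lif and Il6ra (p = 0.24, adjusted p = 0.69, exact) and 0.25 for Il6ra and Gdf5 (p = 0.33, adjusted p = 0.76, exact). Spearman's rho was 0.16, −0.25 and 0.20, with exact p of 0.64, 0.36 and 0.47 and adjusted p of 0.77 or more. None of the 3 pairs passed this test, which called 0% of the 1653 pairs of the table, with 207 at an unadjusted p under 0.05 for Pearson's r and 187 for Spearman's rho. On arrays centred on the other probe sets r was 0.12 for Lif and Gdf5 (p = 0.74, adjusted p = 0.95, exact), −0.45 for Lif and Il6ra (p = 0.092, adjusted p = 0.55, exact) and 0.093 for Il6ra and Gdf5 (p = 0.75, adjusted p = 0.95, exact). Without centring, the median r of all pairs was 0.20, and 66.0% of them had a lower r than Lif and Gdf5. Leaving out the mice with the most extreme Lif, PTIP- replicates 1 and 2, gave r of 0.057 for Lif and Gdf5 and −0.47 for Lif and Il6ra. Leaving out those with the most extreme Il6ra, PTIP- replicates 4 and 6, gave −0.10 for Il6ra and Gdf5.

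When the series were not removed, r was higher for Lif and Gdf5, and whether it differed from that of the pairs with Il6ra was not tested. For Lif and Gdf5 r was then 0.70 over the 18 mice (permutation test, p = 0.0078, adjusted p = 0.0499, at the threshold), and rho was 0.61 (permutation p = 0.026, adjusted p = 0.13). The pair counted among the 15.8% of pairs that passed at this setting, and its r fell to 0.60 (adjusted p = 0.20) without PTIP+ replicate 4 and PTIP- replicate 1. Lif and Il6ra gave r of −0.19 (permutation p = 0.36) and rho of −0.27 (p = 0.24), and Il6ra and Gdf5 gave r of −0.016 (permutation p = 0.93) and rho of −0.10 (p = 0.67). With the 2 mice of most extreme first gene left out, these were −0.205 and −0.14. The relation of Lif and Gdf5 thus passed across series by r over all 18 mice, and not by rho, without PTIP+ replicate 4 and PTIP- replicate 1, or with series removed. Tests with series kept exchanged mice of a genotype across series, although 69% of the probe sets moved with the series. Their p-values treat mice of the same series as independent, and the part of shared series levels in them was not tested.

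**Figure D4:**
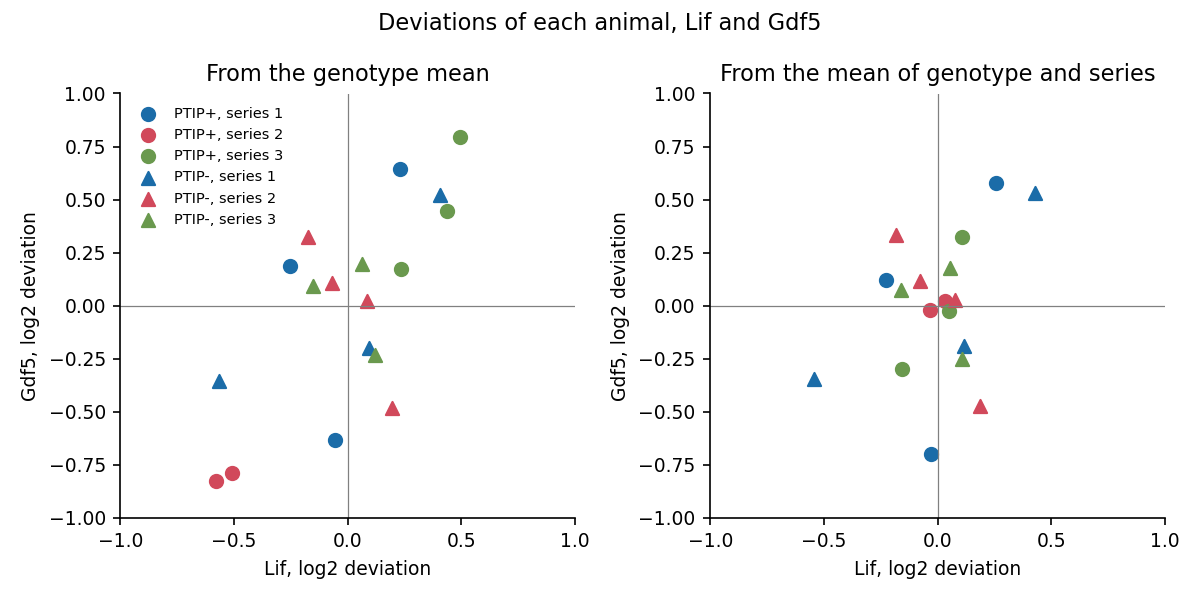
Deviation of Gdf5 (vertical axis) against that of Lif (horizontal axis) in each animal on the log2 scale, from the mean of its genotype (left) and from the mean of its genotype and series (right). On the left, where r is 0.70, the PTIP+ mice of series 2 are lowest for Gdf5 and, with PTIP- replicate 1, lowest for Lif. They move to the centre on the right, where r is 0.35.

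Within PTIP+ mice Lif and Gdf5 were high and low in the same series. Their r was 0.86 (n = 8, exact permutation p = 0.012, adjusted p = 0.12) with rho of 0.83 (exact p = 0.015, adjusted p = 0.20), and r was 0.65 (exact p = 0.16) without the mice of series 2, replicates 4 and 5. With series means removed r was 0.55 (n = 8, exact p = 0.47). Il6ra went the other way in PTIP+ mice, with r of −0.65 against Lif (n = 8, exact p = 0.086, rho −0.52 with exact p = 0.20) and −0.59 against Gdf5 (n = 8, exact p = 0.13, rho −0.50 with exact p = 0.22). The r of Lif and Il6ra was −0.15 (exact p = 0.77) without the mice of series 2 and −0.35 (n = 8, exact p = 0.61) with series means removed. Without replicates 2 and 8, which had the lowest Il6ra, the r of Il6ra and Gdf5 was −0.50 (exact p = 0.31), and with series means removed it was −0.12 (n = 8, exact p = 0.89). None of these passed adjustment over the 1653 pairs, and at these PTIP+ settings 0 of all 1653 pairs did. With series means removed the PTIP+ test had 72 orders, and without 2 mice 720, too few for a single pair to pass alone.

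In PTIP- mice no pair of the 3 genes passed adjustment over the 1653 pairs. With series means removed 0 of all 1653 passed, where 864 orders are too few for a single pair to pass alone. With series kept, 78 passed by r and 11 by rho. For Lif and Gdf5 r was 0.28 (n = 10, permutation p = 0.44) and rho −0.067 (p = 0.86), and without replicates 1 and 2, the lowest and the highest for Lif, r turned to −0.81 (n = 8, exact p = 0.017, adjusted p = 0.16). For Lif and Il6ra r was −0.13 (permutation p = 0.72, rho −0.055 with p = 0.89), and −0.37 (exact p = 0.37) without the same mice. For Il6ra and Gdf5 r was 0.21 (permutation p = 0.57, rho 0.24 with p = 0.52), and 0.20 (exact p = 0.64) without replicates 6 and 10. With series means removed r was 0.28 for Lif and Gdf5, −0.24 for Lif and Il6ra and 0.43 for Il6ra and Gdf5, with exact p of 0.69, 0.32 and 0.25. Whether the genotypes differ in covariation was not tested.

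No pair passed within a series, where 6 mice allow too few orders for a single pair to pass adjustment alone. This test thus cannot decide whether a pair covaries within a series, and whether r differs between series was not tested. Within series 1, 2 and 3, with genotype means removed and n = 6 in each, r for Lif and Gdf5 was 0.61, −0.91 and 0.32 (exact permutation p = 0.25, 0.062 and 0.53). For Lif and Il6ra it was −0.19, −0.79 and 0.075 (exact p = 0.72, 0.25 and 0.94), and for Il6ra and Gdf5 it was −0.12, 0.84 and −0.12 (exact p = 0.89, 0.19 and 0.83). The smallest p that 6 mice allow, before adjustment, is 0.028 in series 1 and 3 and 0.021 in series 2.

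**Figure D5:**
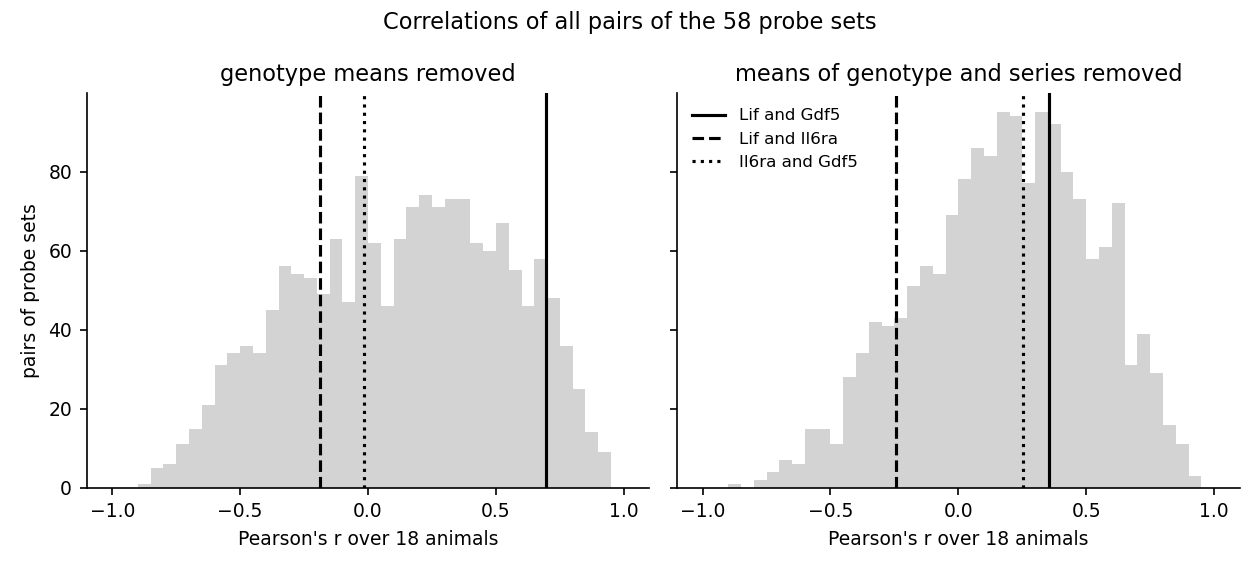
Number of pairs of probe sets (vertical axis) by Pearson's r over the 18 animals (horizontal axis), with genotype means removed (left) and with means of genotype and series removed (right), for all 1653 pairs. Lines mark the 3 pairs of Lif, Il6ra and Gdf5, of which Lif and Gdf5 falls from 0.70 to 0.35 between the panels.

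The genes most like each of the 3 were other than their partners once genotype and series were removed. Lif was nearest to Aff3 (r = 0.68 over 18 mice), then to 2 probe sets without a symbol, 1442350_at (0.63) and 1442392_at (0.58). Gdf5 was nearest to Wif1, which encodes a secreted Wnt inhibitor (0.78), A330068G13Rik (1446622_at, 0.64) and Ntrk3, a neurotrophin receptor (1455917_at, 0.62). The other probe set of A330068G13Rik, 1441491_at, had an r of 0.30 with Gdf5, and the other 4 of Ntrk3 had 0.19 to 0.59. Il6ra was nearest to 1447723_at (0.80), Lingo2, a leucine-rich repeat membrane protein (0.77), and the sialyltransferase St6galnac3 (1420902_at, 0.75). The other probe set of St6galnac3, 1420903_at, had an r of −0.44 with Il6ra, of the opposite sign. Adjusted p over the 1653 pairs was 0.16 or more for all 9 in the exact permutation test. Some of these values were not alike in the genotypes, a difference that was not tested. In PTIP+ and PTIP- mice r was −0.15 and 0.90 for 1447723_at with Il6ra, −0.29 and 0.83 for 1420902_at of St6galnac3 with Il6ra, and 0.019 and 0.79 for Aff3 with Lif.

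With series not removed the lists changed for the ligands and stayed for the receptor. Il6ra was again nearest to 1447723_at (0.87), 1420902_at of St6galnac3 (0.85) and Lingo2 (0.83), with adjusted p of 0.0053 or less in the permutation test. All p-values of this paragraph come from exchanging mice across series, as if mice of the same series were independent. The other St6galnac3 probe set, 1420903_at, had an r of −0.74 with Il6ra (permutation test, adjusted p = 0.0095). Lif was nearest to the integrin subunit gene Itga2 (0.74, adjusted p = 0.022), Gdf5 (0.70) and 1457125_at (0.67, adjusted p = 0.04). Gdf5 was nearest to 1446622_at of A330068G13Rik (0.77, adjusted p = 0.0028), the synaptic adhesion gene Lrrc4 (0.71, adjusted p = 0.037) and Lif, while 1441491_at of A330068G13Rik had an r of 0.22 with Gdf5 (adjusted p = 0.45). For Itga2 the r with Lif was 0.93 in PTIP+ and 0.29 in PTIP- mice, while 1447723_at gave r with Il6ra of 0.46 in PTIP+ and 0.89 in PTIP- mice, again with series kept.

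Few other genes of these pathways have a probe set. In the table's annotation Comp shares TGF-beta signalling with Gdf5, Itga2 shares the hematopoietic cell lineage pathway with Il6ra, and Jak-STAT signalling holds Lif and Il6ra alone. Of 25 genes of gp130 signalling and 25 of BMP signalling, 0 have a probe set in the table. A list of 11 other ligand, receptor and secreted modulator genes was taken from genes the study selected on these arrays, so its directions are not independent evidence. Of its 15 probe sets, 9 were called lower and 4 higher in PTIP- mice, beside 33 lower (56.9%) and 19 higher (32.8%) of all 58, shares close to those of the list. The median log2 fold change was −1.30 in the list and −1.10 over all 58. Wif1 (−4.38) and Ntrk3 (−1.30 to −3.10 over 5 probe sets) were lower with Nell2 (−1.41), Lrrc4 (−1.32) and Itga2 (−1.23). Adm, which encodes the peptide adrenomedullin (1.01), Hhipl1 (1.38), the matrix protein gene Comp (1.35) and Lrtm2 (1.78) were higher. Ephb1 (−0.92) and Lingo2 (−0.82) were short of 2-fold. With the series as a block Ephb1 was called lower as well, at −1.05, and on centred arrays 5 of the 15 were called lower, those of Wif1 and 4 of Ntrk3, beside 12 of all 58.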

How the data were processed

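Arrays of 18 mice were normalized by the authors with RMA, and log2 values of the 58 probe sets they selected were deposited, 1 column per mouse (0 unmapped columns). Its t-statistic, p-value and fold change columns, the authors' comparison, were not used. Versions of their tools are not given in the sources used here. Genotypes came from the labels, and series from scan-name numbers. Members and lists were chosen with earlier results of these data known.

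Genotype was fitted with limma 3.58.1 in R 4.3.3 (lmFit, arrayWeights, eBayes), with Benjamini-Hochberg adjustment over 58 probe sets. Weights and prior came from these 58 probe sets and not from whole arrays. Spread, unequal change and covariation were tested two-sided by permuting animals in Python 3.11.15 with numpy 2.4.6, exactly (43758 splits, 6000 within series, 62208 orders within genotype and series) or with 100000 resamples, adjusted over 58 probe sets or 1653 pairs. Steps were tested on simulated data. Alternatives were array weights, series or replicate blocks, centring, priors, filters, medians, ranks and left-out animals. For each gene the 3 probe sets with the highest r were named. No 2 arrays held the same values.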

Additional observations from a re-analysis of the deposited data

How the results depend on the processing

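All fold changes of the 3 genes kept their direction under every alternative tried. The replicate numbers did not pair the animals: the correlations of 8 same-numbered pairs ran from −0.35 to 0.62, with 5 over 0.1, and within a series the mean was 0.390 for the same number and 0.399 for others. With replicate number as a block, over replicates 1 to 8, the log2 fold change of Lif was −0.85, short of 2-fold, no other call of the 3 genes changed, and 48 probe sets were called. Lif was also short of 2-fold at −0.82 without array weights and in the exact permutation test, −0.84 as a difference of medians, −0.96 with the series as a block, −0.78 with the block and no weights and in the exact permutation test within series, −0.99 over probe sets with a mean above 5, and −0.44 on centred arrays. Gdf5 was short of it at −0.98 with the series as a block and no weights, as in the exact permutation test within series, and at −0.86 on centred arrays, as was Il6ra at −0.74. Leaving out each animal in turn gave −1.11 to −0.87 for Lif, −1.42 to −1.17 for Il6ra and −1.51 to −1.31 for Gdf5, and 48 to 55 changed probe sets. Centring gave 32 changed probe sets, a minimum log2 fold of 1.5 gave 20, and the interaction test without weights gave 0 in place of 9. The probe sets of a symbol were not compared, as each gene has 1.

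With each animal left out in turn, r was 0.10 to 0.50 for Lif and Gdf5, −0.41 to −0.099 for Lif and Il6ra and 0.052 to 0.42 for Il6ra and Gdf5, and the change of Il6ra minus that of Gdf5 was −0.27 to 0.084. For Lif and Gdf5 the r of 0.70 without removing series was the one that passed. Its sign turned in PTIP- mice as rho (−0.067) and without replicates 1 and 2 (−0.81). Within single series signs turned as well, for Lif and Gdf5 in series 2 (−0.91) and for Lif and Il6ra in series 3 (0.075). The r of Il6ra and Gdf5 was −0.12 in series 1 and in series 3. The sign of Il6ra and Gdf5 turned with genotype alone removed (r −0.016, rho −0.10, and −0.14 without 2 animals), in PTIP+ mice (−0.12 with series removed, otherwise r −0.59, rho −0.50, and −0.497 without 2 animals), without series 2 (−0.094) and without the 2 animals of extreme Il6ra (−0.10). The difference in Lif spread turned to 0.074 from medians of genotype and series, 0.043 on centred arrays and 0.0052 without series 2. Settings without series 2 and those within a genotype with series kept were chosen after seeing the data. So were rho and left-out animals with genotype alone removed, and the 2 alternatives to the interaction test. For the spread of Il6ra alone, the setting without PTIP- replicate 6 was too. The cause of these changes was not tested. Signal over background was not analysed here, and a low log2 value may be compressed by it.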
